A study of Salmo salar with 45 samples.

Results

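The 4 genes described here encode secreted proteins of the TGF-β superfamily or an inhibitor of them: *tgfb1a* (ENSSSAG00000052708), *bmp4* (ENSSSAG00000051847), *bmp6* (ENSSSAG00000116556) and *nbl1* (ENSSSAG00000078075). They were fixed by identifier, with earlier results of these data known, and were not a blind choice. In all, 69389 genes were counted in the distal intestine of 45 Atlantic salmon. Each of 5 diets was fed to triplicate tanks for 61 days, and 9 of these fish came from each diet. The control diet (CD) held no additive. The LP20, LP100 and LP500 diets held 20, 100 and 500 mg per kg feed of Feed LP20™. By dry weight, 20% of this commercial powder is the heat-killed bacterium *Lactiplantibacillus plantarum*, strain L-137 (HK L-137), and the rest is tapioca dextrin. The amounts are those of the powder, not of the bacterium. The MG diet held 2 g β-glucan per kg feed as a positive control. All groups were fresh water fish, and the diet was the only labelled difference. RNA came from whole distal intestine tissue, so each library could hold epithelium, connective tissue, muscle, vessels and nerves together. The labels give no tank, so fish that shared one could not be identified. The p-values measure the spread between fish, not between tanks, although the diet was given by tank. Runs of 3 consecutive fish numbers of a diet were used in alternative fits, and whether a run is a tank is not given.

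TGF-β1 and the bone morphogenetic proteins (BMPs) are secreted ligands that bind pairs of receptor kinases at the cell surface, which phosphorylate Smad proteins that enter the nucleus and regulate genes. TGF-β1 is stored in the extracellular matrix and, once released, drives matrix production by fibroblasts and restrains immune cells. In the mammalian gut, BMP ligands are made largely by the connective tissue under the epithelium and limit the proliferation of epithelial cells, while antagonists such as the DAN protein encoded by *nbl1* hold BMP ligands away from their receptors. BMP6 is best known in mammals as the liver signal that induces the iron hormone hepcidin.

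The question of the comparisons was whether the level of these genes differed between diets, and whether it followed the stroma (here connective tissue, muscle, vessels and nerves) or the epithelium of the same fish. *bmp4*, *nbl1* and *tgfb1a* rose and fell among fish of the same diet with fibroblast and muscle genes. *bmp4* was higher than in CD in fish fed LP100 and LP500, by 2.52-fold and 2.76-fold, and *nbl1* in fish fed LP500, by 2.38-fold. The LP100 call of *bmp4* held in only 3 of 18 fits that left out a fish. Both *bmp4* calls were lost in another tool, limma-voom, with runs of 3 consecutive fish numbers as a random effect. The consensus correlation within runs was -0.0059 there. As limma-voom was not run without the runs, what they contributed to the loss was not tested. *bmp6* had the highest level of the 4. However, 51.3% of its exon length overlaps a gene on the other strand, and how many of its fragments came from that gene was not tested. With diet means removed no correlation of *bmp6* with stroma or epithelium was detected, and it did not pass the test in any comparison.

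Coordinates are those of the assembly Ssal_v3.1. *tgfb1a* lies on chromosome 9 (156082309 to 156133204, minus strand), *bmp4* on chromosome 1 (32667223 to 32681912, minus strand), *bmp6* on chromosome 29 (19984975 to 20023834, plus strand) and *nbl1* on chromosome 12 (67794670 to 67807702, plus strand). The gene models hold 4 to 7 merged exons. The symbols were given by position, from the RefSeq gene that shared 0.818, 1.0, 0.923 and 1.0 of the joint span, in the order named. No other named RefSeq gene matched under the same stem as one of the 4. Exons of *tgfb1a* and *bmp6* overlap a gene on the other strand, *tgfb1a* over 17.1% and *bmp6* over 51.3% of the exon length.

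Levels are counts per 1000000 fragments on genes (CPM), scaled with TMM factors. Each fish had between 9660750 and 22377591 fragments on genes (median 14634308). *bmp6* was counted with 427 to 1191 fragments per fish, *tgfb1a* with 50 to 192, *nbl1* with 15 to 174 and *bmp4* with 4 to 110. At the median fish, counting alone gave a relative error of 3.51% for *bmp6*, 10.1% for *tgfb1a*, 13.5% for *bmp4* and 14% for *nbl1*. At the fish with the fewest fragments it was 4.84% for *bmp6*, 14.1% for *tgfb1a*, 50% for *bmp4* and 25.8% for *nbl1*. The error at the median fish was below the spread between fish of one diet. The coefficient of variation of that spread was 8.77% to 16.2% for *bmp6*, 14.6% to 30.5% for *tgfb1a*, 35.5% to 79.5% for *bmp4* and 34.9% to 65.6% for *nbl1*. Per kb of exon the mean level over all fish was 9.22 CPM for *bmp6*, 2.33 CPM for *nbl1*, 1.70 CPM for *tgfb1a* and 1.56 CPM for *bmp4*.

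*bmp4*, the BMP ligand of the mammalian gut mesenchyme, ranged from 0.859 to 3.82 CPM in CD (median 1.38). The range was 1.18 to 6.09 CPM in LP20 (median 4.41), 0.946 to 6.30 CPM in LP100 (median 4.81) and 1.06 to 8.77 CPM in LP500 (median 5.09). In MG it ran from 0.254 to 7.21 CPM (median 2.496). The groups overlapped, although 7 of 9 LP100 fish and 6 of 9 LP500 fish stood above every CD fish. The LP100 fish A032 (3.406 CPM) and the LP500 fish A026 (2.826) and A067 (3.692) lay below only the highest CD fish. That fish, A073, held 3.822 CPM, and the next CD fish, A051, 2.822. The lowest fish of either diet lay within the lower part of the CD range. The means were 1.81 ± 0.959 CPM in CD, 3.89 ± 1.86 in LP20, 4.56 ± 1.62 in LP100, 5.01 ± 2.33 in LP500 and 3.13 ± 2.49 in MG (SD, n = 9 each). In the 3 HK L-137 diets, 7 or 8 of 9 fish were above the CD mean.

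Against CD, *bmp4* differed by a log2 fold change of 1.47 (SE 0.398) in LP500 and 1.33 (SE 0.398) in LP100, with adjusted p-values of 0.0147 and 0.0457 (edgeR quasi-likelihood test, Benjamini-Hochberg over 31729 genes). The changes of 1.11 (SE 0.399) in LP20 and 0.79 (SE 0.402) in MG did not pass the threshold of 0.05, with edgeR adjusted p-values of 0.203 and 0.709. In limma-voom with the runs of 3 consecutive fish numbers of a diet as a random effect, neither call held (limma adjusted p = 0.0522 in LP500 and 0.0956 in LP100). The consensus correlation within runs was -0.0059. Limma-voom was not run without the runs, so the change of tool and the runs cannot be told apart. With the counts summed over each run, LP500 passed (edgeR adjusted p = 0.0422) and LP100 did not (0.0842). The LP500 call held without any single fish (18 of 18 fits). It was lost without the first 3 CD fish by number, A001 to A003 (edgeR adjusted p = 0.156), without the next 3, A049 to A051 (0.0566), and without the LP500 fish A067 to A069 (0.054). The LP100 call held in 3 of 18 fits, those without A051, A073 or A061, and was lost in the rest, with an edgeR adjusted p of up to 0.0911, reached without the CD fish A003. Of the 6 fits that left out 3 consecutive fish numbers, 1 kept it (without A073 to A075), and the highest edgeR adjusted p was 0.246, without A001 to A003.

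*nbl1*, the BMP antagonist, ranged from 1.30 to 3.95 CPM in CD (median 1.963). It spanned 1.67 to 10.7 CPM in LP20 (median 4.31), 1.97 to 8.03 CPM in LP100 (median 4.60) and 2.19 to 12.99 CPM in LP500 (median 5.95). MG fish held 1.04 to 8.55 CPM (median 2.74). The highest CD fish was exceeded by 8 of 9 LP100 fish, 6 of 9 LP500 fish and 5 of 9 LP20 fish, so these diets overlapped with CD only in their lower fish, whereas 2 of 9 MG fish exceeded it. Its means were 2.53 ± 1.05 CPM in CD, 4.69 ± 2.90 in LP20, 4.86 ± 1.70 in LP100, 6.03 ± 3.20 in LP500 and 3.26 ± 2.14 in MG (SD, n = 9 each).

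The log2 fold change of *nbl1* against CD was 1.25 (SE 0.338) in LP500, which passed the test (edgeR adjusted p = 0.0144). In LP100 it was 0.95 (SE 0.339, edgeR adjusted p = 0.099), in LP20 0.90 (SE 0.34, edgeR adjusted p = 0.228) and in MG 0.37 (SE 0.343, edgeR adjusted p = 0.871). The LP500 call held in 17 of 18 fits without a fish and was lost without A013, the highest LP500 fish (edgeR adjusted p = 0.0604). It was also lost without the CD fish A001 to A003 (edgeR adjusted p = 0.157). In LP100 the difference passed in 1 of 18 fits without a fish, that without the low fish A061 (edgeR adjusted p = 0.0469). In the other fits without a fish the edgeR adjusted p was up to 0.214, without A037. Of the 6 fits that left out 3 consecutive fish numbers 0 passed (edgeR adjusted p up to 0.354, without A001 to A003).

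*tgfb1a*, the TGF-β1 ligand gene, varied less. CD fish held 4.75 to 7.14 CPM (median 5.89), LP20 fish 5.30 to 8.10 CPM (median 6.52), LP100 fish 5.44 to 9.37 CPM (median 7.63), LP500 fish 4.31 to 10.8 CPM (median 7.60) and MG fish 3.62 to 8.89 CPM (median 5.58). Every diet overlapped with CD, and 5 of 9 fish in LP100 and in LP500 stood above the highest CD fish. The means were 5.76 ± 0.879 CPM in CD, 6.45 ± 0.941 in LP20, 7.40 ± 1.42 in LP100, 7.48 ± 2.02 in LP500 and 5.67 ± 1.73 in MG (SD, n = 9 each).

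No comparison of *tgfb1a* with CD passed the test over all genes. The log2 fold change was 0.38 (SE 0.151, 95% interval 0.08 to 0.67) in LP500 and 0.36 (SE 0.151, 0.06 to 0.66) in LP100, with edgeR adjusted p-values of 0.0997 and 0.173 and unadjusted ones of 0.016 and 0.0213. In LP20 it was 0.16 (SE 0.152) and in MG -0.02 (SE 0.152), with edgeR adjusted p-values of 0.731 and 0.988. Without the low LP500 fish A015 the LP500 difference passed (edgeR adjusted p = 0.0269).

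*bmp6*, the iron-related ligand of mammals, ranged from 50.8 to 64.7 CPM in CD (median 57.8), 36.8 to 60.2 CPM in LP20 (median 52.7), 44.9 to 68.2 CPM in LP100 (median 58.6), 42.7 to 63 CPM in LP500 (median 56.5) and 50.2 to 78.5 CPM in MG (median 58.2). All diets overlapped, and no LP20 or LP500 fish exceeded the highest CD fish. The means were 58.8 ± 5.16 CPM in CD, 50.96 ± 7.37 in LP20, 56.7 ± 7.94 in LP100, 55.7 ± 6.56 in LP500 and 60.3 ± 9.75 in MG (SD, n = 9 each). The LP20 value was the lowest, at -0.21 against CD on the log2 scale (SE 0.091, edgeR adjusted p = 0.313). In fits that left out 3 consecutive fish numbers this change was -0.30 to -0.09. The smallest change was reached without the LP20 fish A055 to A057 (edgeR adjusted p = 0.791). In the other diets the change lay between -0.08 and 0.04 (SE 0.0908, edgeR adjusted p from 0.637 to 0.962), and the widest of their 95% limits were -0.26 and 0.21.

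**Figure D1:**
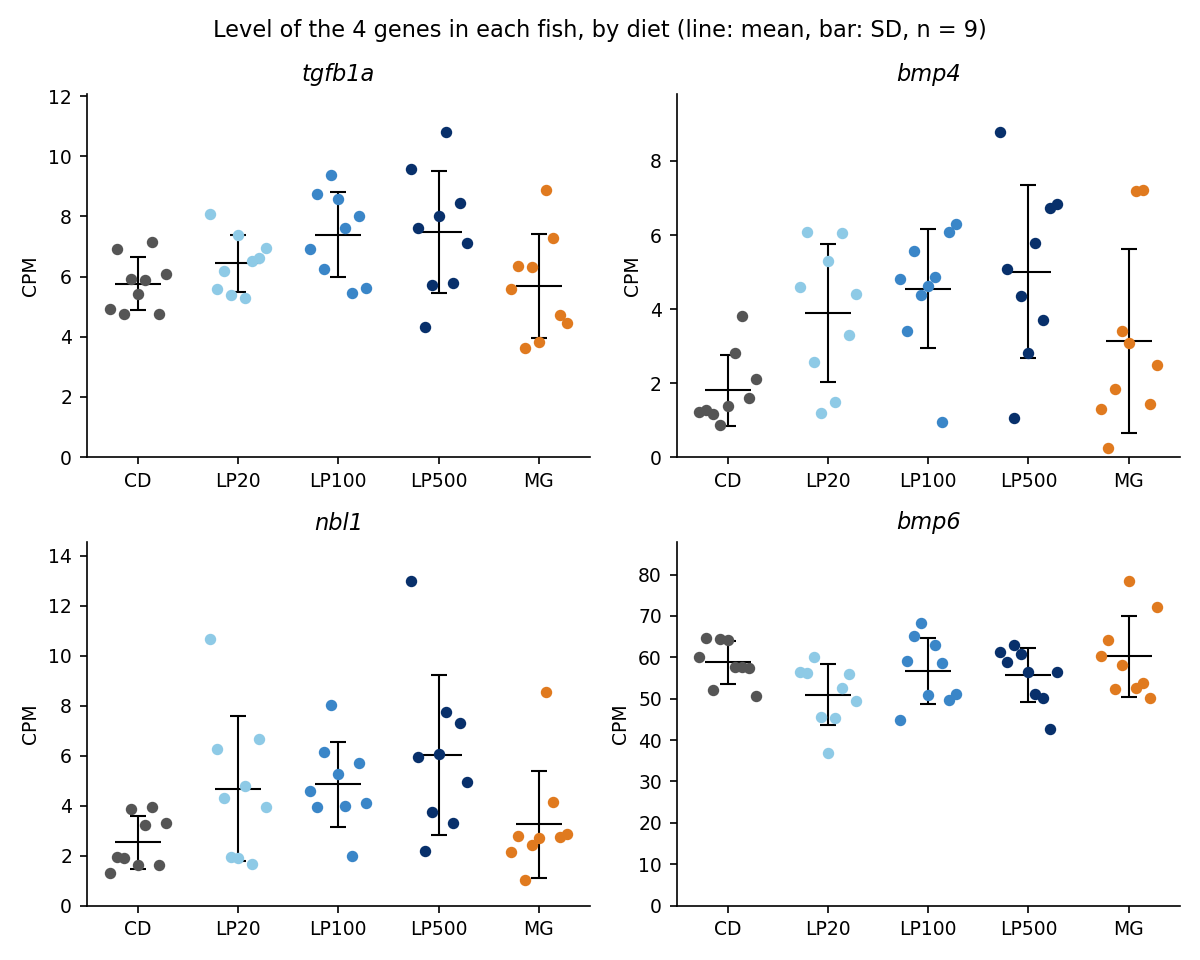
Level of *tgfb1a*, *bmp4*, *nbl1* and *bmp6* in CPM (vertical axes, from 0) in each of 45 fish by diet (points, in order of fish number), with the mean (line) and SD (bar) of 9 fish. For *bmp4*, 7 of 9 LP100 fish and 6 of 9 LP500 fish lie above every CD fish, and for *nbl1* 8 of 9 and 6 of 9. The other fish of these 2 diets lie within the CD range. *bmp6* lies between 36.8 and 78.5 CPM, with all diets overlapping and the lowest mean in LP20 (50.96 CPM).

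Counted over the 4 genes, 2 were called higher in LP500, where 7.45% of all tested genes were called higher, 3.21% lower and 10.7% in either direction. In LP100, 1 of 4 was called, beside 3.6% of tested genes called higher, 0.473% lower and 4.07% in either direction. The 4 genes were chosen with earlier results known, so these counts are not those of a blind choice. Without the CD fish A001 to A003, edgeR called 0 genes in LP100, where 4926 genes had p under 0.05 before adjustment, and 0 in LP500, where 5031 did. In LP100 it also called 0 genes without the CD fish A049 to A051 (5140 genes under 0.05 before adjustment), without the LP100 fish A031 to A033 (4680) and without A037 to A039 (4243). No other tool was run without these fish. In LP20 and in MG 0 of the 4 were called by edgeR, where 0% of tested genes were called. At an unadjusted p under 0.05, 3 of the 4 passed in LP20 (*bmp4* and *nbl1* higher, *bmp6* lower), with 4086 of the tested genes, and 0 of the 4 in MG, with 2265 genes. DESeq2 called 160 genes in LP20, none of the 4 among them, and 0 genes in MG.

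The diets with additive were also compared with each other. None of the 4 genes passed in the 6 comparisons, in which 0% of tested genes were called by edgeR and between 1315 and 4296 genes had an unadjusted p under 0.05. In the order of *bmp4* means (LP500, LP100, LP20, MG, CD), neighbours among the 4 diets with additive therefore did not differ beyond their spread. The log2 difference between LP500 and LP100 was 0.13 for *bmp4* (95% interval -0.60 to 0.87), 0.31 for *nbl1* (-0.33 to 0.94) and 0.02 for *tgfb1a* (-0.27 to 0.31). Against MG, LP500 was higher by 0.88 for *nbl1* (95% interval 0.23 to 1.53, edgeR adjusted p = 0.326) and by 0.40 for *tgfb1a* (0.11 to 0.70, edgeR adjusted p = 0.326).

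A slope was also fitted over 36 fish, with CD, LP20, LP100 and LP500 as consecutive steps. The slope passed for *bmp4*, *nbl1* and *tgfb1a*, at 0.44 (SE 0.115), 0.37 (SE 0.106) and 0.13 (SE 0.0427) log2 units per step, with edgeR adjusted p-values of 0.0132, 0.0229 and 0.0392. Of all tested genes 7.27% passed upwards, 3.36% downwards and 10.6% in either direction. For *bmp6* it was -0.01 (SE 0.0285, edgeR adjusted p = 0.878). The slope uses the same CD fish as the comparisons above and gives no separate evidence.

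**Figure D2:**
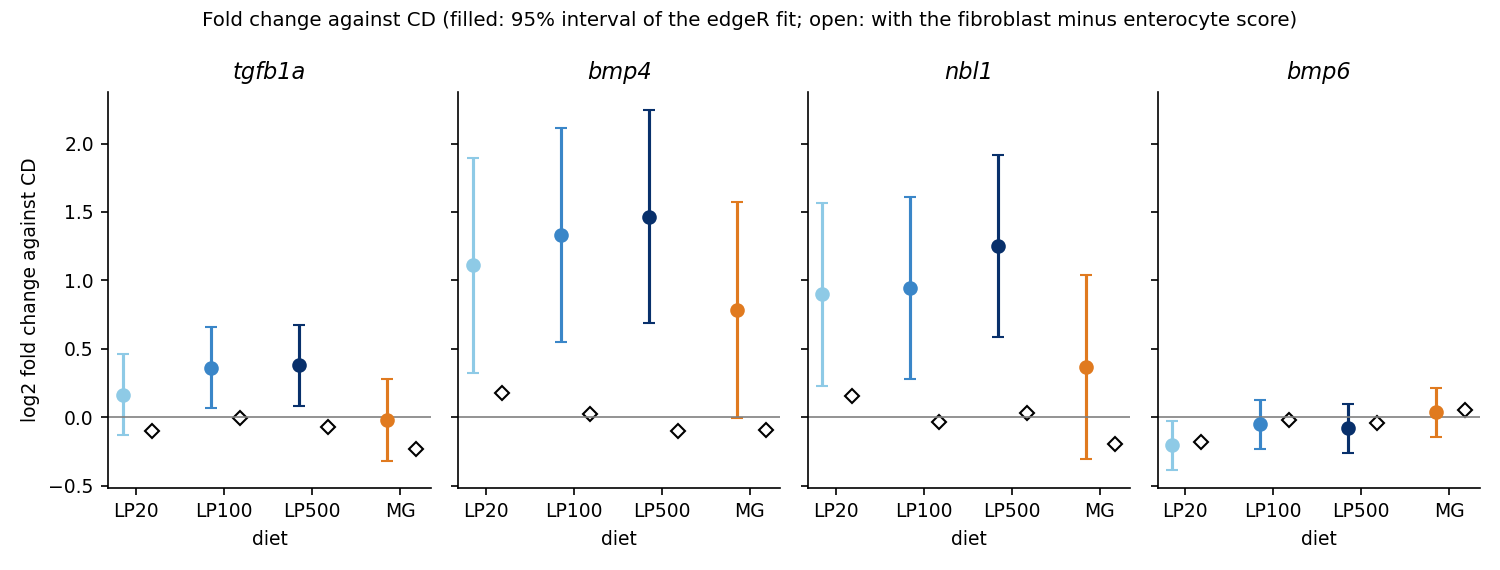
Log2 fold change against CD (vertical axis) of the 4 genes in each diet with additive (horizontal axis). Filled points and bars are the edgeR estimate with its 95% interval, and open diamonds are the estimate from a fit that also holds the fibroblast minus enterocyte score of each fish. The filled points of *bmp4* reach 1.47 in LP500, and all open diamonds lie between -0.23 and 0.18.

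Marker genes of the cell types in the gut wall were summed up as scores: the mean over a list of its log2 CPM minus the mean of each gene over the 45 fish. Of 14 lists, 5 had at least 3 tested members and were used: fibroblast (11 genes), smooth muscle (5), endothelium (6), enteric neuron and glia (5) and enterocyte (17). Of the enterocyte genes, *cubn*, the endocytic receptor cubilin, stood at 1992 to 4517 CPM. The list also held low genes, such as *lrp2a* at a mean of 0.581 CPM and the peptide transporter gene *slc15a1* at 4.20 CPM. The *slc15a1* mean was 14.06 ± 39.28 CPM (SD) in LP20 and 1.30 to 2.01 CPM in the other diets. For *apoa1* the SD in LP20 also exceeded the mean (2463 ± 2972 CPM). What *slc15a1* and *apoa1* contributed to the enterocyte score and its correlations was not tested. *apoba* and *mep1ba* were too low to test. The fibroblast score was higher than in CD by 1.03 in LP20, 1.41 in LP100, 1.56 in LP500 and 0.74 in MG on the log2 scale, with exact permutation p-values, adjusted over 20 tests, of 0.00995, 0.00391, 0.00391 and 0.0732. It ranged from -1.40 to 0.157 in CD, from -1.39 to 1.05 in LP20, from -1.34 to 1.1 in LP100, from -1.51 to 1.89 in LP500 and from -1.09 to 1.14 in MG. The smooth muscle score was higher by 0.65, 0.85 and 0.98 in LP20, LP100 and LP500 (adjusted exact permutation p = 0.0208, 0.00391 and 0.00391). The enterocyte score differed from CD by 0.001 to -0.10 in the 4 diets (adjusted exact permutation p from 0.269 to 0.986). In LP500 3 of its 17 tested members stood higher than in CD (median log2 fold change of the 17 -0.15), and in LP100 3 (median -0.07). In LP20 10 stood higher (median 0.03) and in MG 5 (median -0.05). The keratin gene *krt18b* was called higher in LP500 (1.30, edgeR adjusted p = 0.00641). *slc9a3r1*, a scaffold protein of microvilli, was called lower there (-0.36, edgeR adjusted p = 0.0193). With only members that shared at least 0.8 of the joint span with their RefSeq gene, the LP500 difference of the enterocyte score was -0.19 (adjusted exact permutation p = 0.0827). In bulk tissue, fewer cells of a type and less RNA per cell cannot be told apart.

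Among fish of the same diet, *bmp4* rose and fell with the stromal scores, with its highest r for fibroblast and endothelium. With the mean of each diet removed from gene and score, its Pearson r over 45 fish was 0.86 with the fibroblast score (Spearman's rho 0.87), 0.82 with endothelium, 0.74 with neurons and glia and 0.68 with smooth muscle. All 4 had an adjusted permutation p of 2.22e-05, which corresponds to the smallest unadjusted value that 100000 permutations can give (1e-05), adjusted over the 20 pairs of gene and score. Within single diets the fibroblast r of *bmp4* was between 0.82 and 0.95, and it was 0.85 without the 2 fish farthest from the median score. Without the lowest-scoring fish of each diet, an alternative chosen after seeing the data, it was 0.79. With the enterocyte score r was -0.13 (rho -0.12, adjusted permutation p = 0.528).

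*nbl1* had its highest r with smooth muscle (0.80, rho 0.74) and with neurons and glia (0.79, rho 0.80), followed by fibroblast (0.69, rho 0.64), each with an adjusted permutation p of 2.22e-05, and by endothelium (0.58, rho 0.55, adjusted permutation p = 0.00015). Within single diets the smooth muscle r was between 0.65 and 0.97. It was also lower in fish with a higher enterocyte score (r = -0.51, rho -0.50, adjusted permutation p = 0.00189), with r between -0.88 and -0.03 in single diets and -0.39 without the 2 fish farthest from the median score. With CPM from total counts in place of TMM this r was -0.35 and no longer passed (adjusted permutation p = 0.0557). With only list members that shared at least 0.8 of the joint span it was -0.62 (adjusted permutation p = 8.33e-05), and r with enterocyte was then -0.29 for *bmp4* and -0.32 for *tgfb1a*, which did not pass (adjusted permutation p = 0.0862 and 0.0767). Whether r differed between scores or between genes was not tested.

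*tgfb1a* was correlated with smooth muscle (r = 0.72, rho 0.70, adjusted permutation p = 2.22e-05), neurons and glia (0.67, rho 0.62, 2.22e-05), fibroblast (0.65, rho 0.59, 4e-05) and endothelium (0.62, rho 0.59, 9.09e-05). Its r with fibroblast was 0.47 to 0.85 in single diets and 0.57 without the 2 fish farthest from the median score. With the enterocyte score r was -0.22 (rho -0.22, adjusted permutation p = 0.242). *bmp6* had r between -0.11 and -0.01 with the 5 scores (adjusted permutation p from 0.632 to 0.951), so that no relation to stroma or epithelium was detectable with diet means removed. With the means of runs of 3 consecutive fish numbers removed, its r with the fibroblast score was -0.34 (adjusted permutation p = 0.0358).

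The 4 stromal scores, neurons and glia included, were correlated with each other within diets (r from 0.76 to 0.91), so the values above do not separate one stromal cell type from another. The neuron and glia list was mixed: in LP500 3 of its 5 tested genes were called higher. They were the neuropeptide gene *vipb* (2.36, edgeR adjusted p = 0.00597), *nos1* (2.06, edgeR adjusted p = 0.0159) and *stmn2b* (1.44, edgeR adjusted p = 0.00872). The genes *elavl3* and *ret* stood at 0.16 and -0.17 and did not pass (edgeR adjusted p = 0.235 and 0.492). Over all 45 fish without removal of diet means, r with the fibroblast score was 0.89 for *bmp4*, 0.78 for *nbl1*, 0.70 for *tgfb1a* and -0.19 for *bmp6*. Over all 45 fish, the widest gap between neighbouring fish on a score was at most 0.261 of the whole range. Whether the fish of a diet form separate groups was not tested. In MG, no fish stood between -0.754 and 0.671 on the endothelium score.

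**Figure D3:**
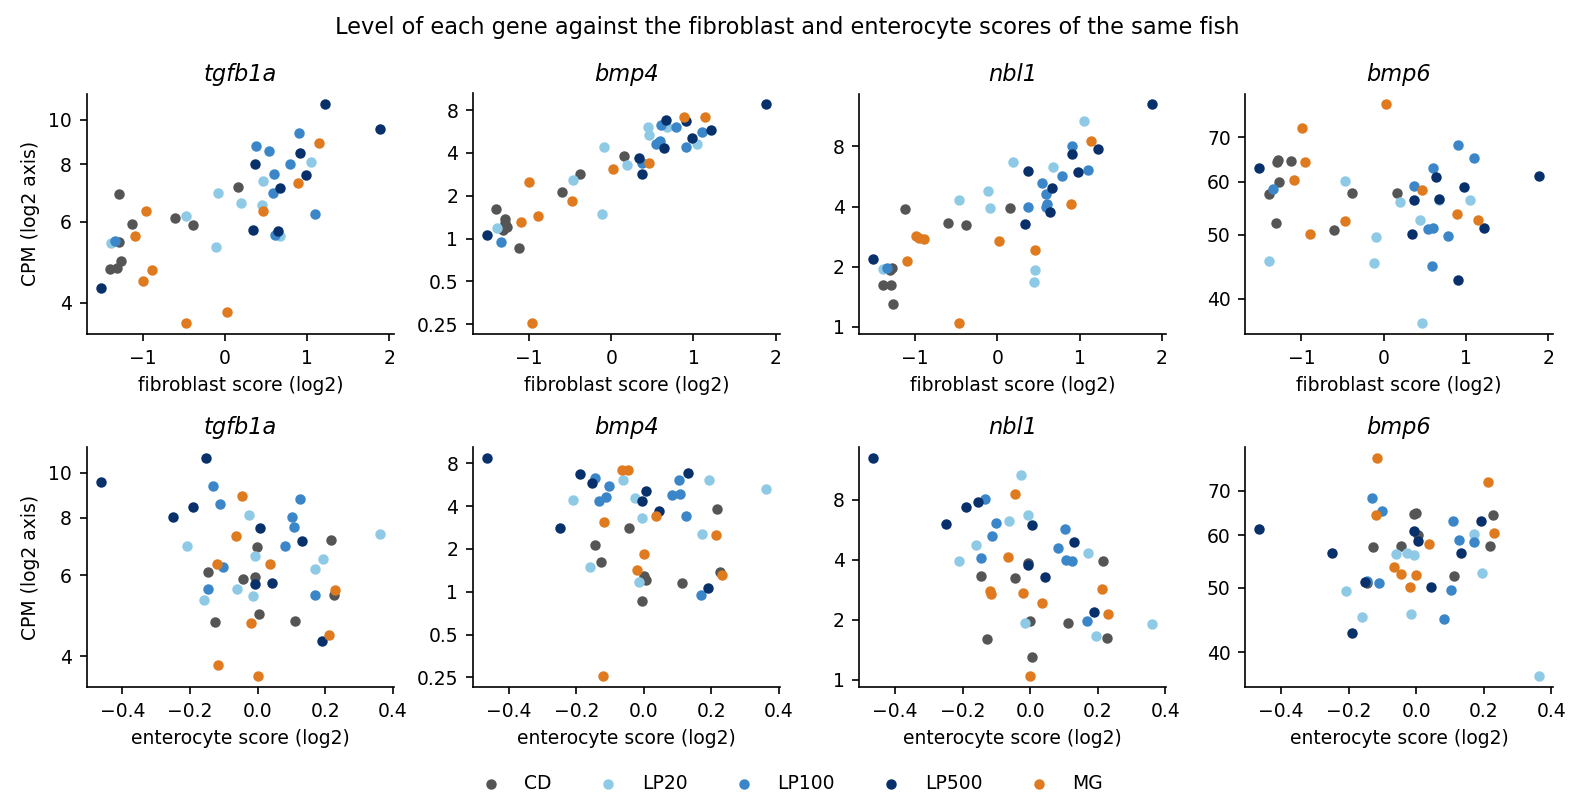
CPM of each gene (vertical, log2 axis) against the fibroblast score (upper row) and the enterocyte score (lower row) of the same fish (log2 units, horizontal), with 45 points coloured by diet. *bmp4* climbs with the fibroblast score in every diet (r = 0.86 within diets), *nbl1* and *tgfb1a* less tightly (0.69 and 0.65), and *bmp6* is flat (-0.11). In the lower row *nbl1* declines with the enterocyte score (r = -0.51).

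In LP500 and in LP100 the same fish was lowest for *bmp4*, *nbl1* and *tgfb1a*, which was not so in CD, LP20 or MG. In LP20, for example, the lowest *nbl1* fish, A085 (1.67 CPM), held 6.06 CPM of *bmp4*. In the LP500 fish A015, *bmp4* was 1.06 CPM, *nbl1* 2.19 CPM and *tgfb1a* 4.31 CPM, each the lowest of its diet, at a fibroblast score of -1.51. The LP100 fish A061 was lowest in its diet for *bmp4* (0.946 CPM), *nbl1* (1.97 CPM) and *tgfb1a* (5.44 CPM), at a score of -1.34. *bmp6* was 63 CPM in A015, the highest value of LP500, and 58.6 CPM in A061, the median of LP100. At the other end, the MG fish A045 held 7.18 CPM of *bmp4*, 8.55 CPM of *nbl1* and 8.89 CPM of *tgfb1a*, and the LP500 fish A013 8.77 CPM of *bmp4* and 12.99 CPM of *nbl1*.

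When the fibroblast minus enterocyte score was added to the edgeR fit, the differences of *bmp4* from CD became 0.18, 0.02, -0.10 and -0.09 in LP20, LP100, LP500 and MG. Those of *nbl1* became 0.16, -0.04, 0.03 and -0.20, and those of *tgfb1a* -0.10, 0.00, -0.07 and -0.23. In that fit edgeR called 0 genes of the whole table in each of the 4 comparisons, with 830 to 1610 genes at an unadjusted p under 0.05, and no other tool was run with the score. With the smooth muscle minus enterocyte score instead, *bmp4* kept 0.56 in LP100 and 0.48 in LP500 (edgeR adjusted p = 0.937 and 0.744) and *nbl1* 0.08 and 0.09 (0.996 and 0.936). The scores themselves differed between diets, so that diet and tissue makeup can only in part be told apart in these fits.

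Among the 4 genes, *tgfb1a* and *nbl1* had the highest r within diets (0.65, rho 0.61, adjusted permutation p = 6e-05 over 6 pairs). *bmp4* and *nbl1* had r = 0.49 (rho 0.44, adjusted permutation p = 0.00549) and *tgfb1a* and *bmp4* r = 0.46 (rho 0.42, adjusted permutation p = 0.00962). *bmp6* had r between -0.16 and 0.11 with the others (adjusted permutation p from 0.427 to 0.502). The log2 ratio of the antagonist *nbl1* to the ligand *bmp4* averaged 0.49 ± 0.624 in CD, 0.21 ± 1.16 in LP20, 0.15 ± 0.501 in LP100, 0.28 ± 0.522 in LP500 and 0.30 ± 1.14 in MG (SD, n = 9 each). No difference from CD in this ratio was detected, with values of -0.34 to -0.19 in the 4 diets (adjusted exact permutation p = 0.675 each). With 9 fish per diet, differences of this size could not be told from the spread.

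**Figure D4:**
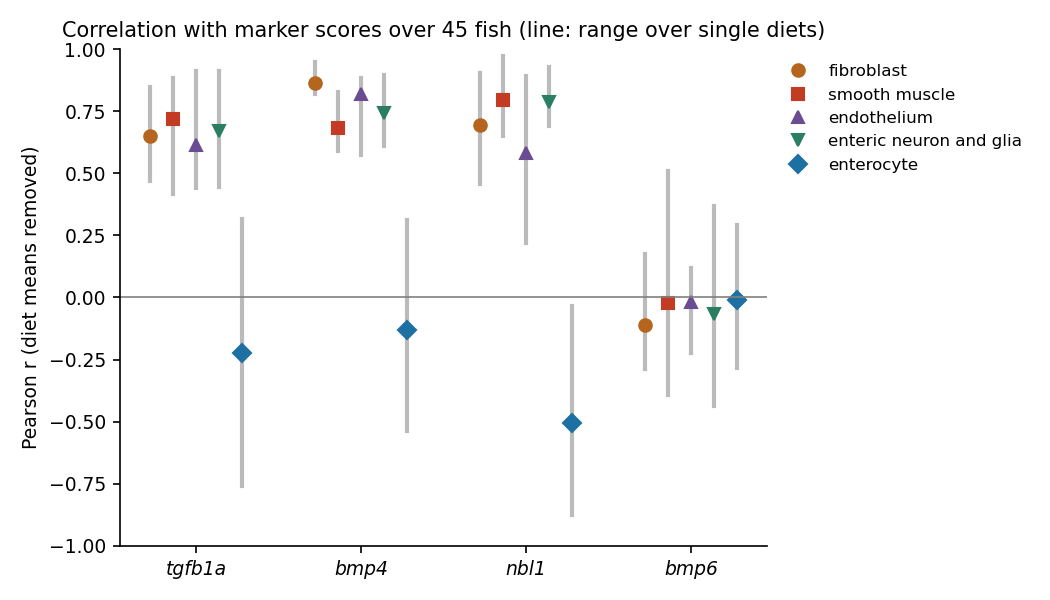
Pearson r over 45 fish, diet means removed (vertical axis, -1 to 1), between each of the 4 genes (horizontal axis) and 5 marker scores (symbols), with the range of r in single diets as a grey line. The 4 stromal scores lie between 0.58 and 0.86 for *tgfb1a*, *bmp4* and *nbl1* and between -0.11 and -0.02 for *bmp6*, and the enterocyte score lies at or below -0.01 for all 4.

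The genes most like each of the 4 were taken by the highest r within diets over 45 fish. They were ranked among 6610 genes with a mean of at least 1 CPM and a symbol other than a LOC number. Genes without such a symbol were not ranked and could have a higher r. For *bmp4* they were *mmrn2a* (r = 0.91), which encodes an endothelial matrix protein, *loxa* (0.90), the collagen crosslinking enzyme lysyl oxidase, the complement gene *c7b* (0.90), the lipid phosphatase gene *plpp3* (0.89) and *pcolcea* (0.89), an enhancer of procollagen processing. Its r was 0.87 with the collagen gene *col1a1a*, 0.70 with the smooth muscle actin gene *acta2* and -0.18 with *cubn*. For *nbl1* they were the tropomyosin genes *tpm2* (0.90) and *tpm1* (0.85), *rbpms2a* (0.87), an RNA-binding protein of smooth muscle, *cavin1* (0.84), a coat protein of caveolae, and *slmapb* (0.84), a membrane protein of muscle. Its r was 0.77 with *acta2*, 0.68 with *col1a1a* and -0.31 with *cubn*.

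*tgfb1a* was most like *esyt2b* (r = 0.80), which encodes a tether between the endoplasmic reticulum and the plasma membrane, *cavin1* (0.78), *c1qtnf6a* (0.78), *si:ch211-225h24.2* (0.75) and *rbpms2a* (0.75). *cavin1* and *rbpms2a* were thus named for both *tgfb1a* and *nbl1*, although 93.3% of the exon length of *cavin1* lies opposite another gene. The r of *tgfb1a* was 0.67 with *acta2*, 0.61 with *col1a1a* and -0.23 with *cubn*. The central 95% of r over all 27856 genes with a mean of at least 1 CPM was -0.52 to 0.62 for *tgfb1a*, -0.54 to 0.72 for *bmp4*, -0.56 to 0.66 for *nbl1* and -0.34 to 0.37 for *bmp6*. The r of *tgfb1a* with *col1a1a*, that of *bmp4* with *acta2* and every r with *cubn* lay within these ranges.

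*bmp6* was most like *txndc5* (r = 0.85), its neighbour on the other strand, which encodes a protein disulfide isomerase of the endoplasmic reticulum. It was followed by *p2rx1* (0.83), a channel gated by extracellular ATP, and by *si:dkey-24p1.6* (0.74), *si:dkey-87o1.2* (0.70) and *zgc:158403* (0.70). Its r with *col1a1a*, *acta2* and *cubn* was -0.08, -0.01 and -0.19.

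*txndc5* (ENSSSAG00000081416, chromosome 29, 20020693 to 20036569, minus strand) shares 3142 exon bases with *bmp6*, 64.3% of its own exon length. It had a mean of 78.8 CPM over all fish, with 84.6 ± 9.44 in CD, 72.1 ± 8.35 in LP20, 78.2 ± 12.9 in LP100, 75.8 ± 10.2 in LP500 and 83.3 ± 12.03 in MG (SD, n = 9 each). As with *bmp6*, the LP20 mean was the lowest, and no comparison with CD passed (log2 fold change in LP20 -0.23, edgeR adjusted p = 0.248). The ratio of *bmp6* to *txndc5* CPM varied from 0.642 to 0.906 (median 0.714) over the 45 fish, and r was 0.68 to 0.94 in single diets (rho 0.84 within diets, adjusted permutation p = 3e-05 over 3 pairs). Over 1563 tested pairs on opposite strands that share at least 50% of the shorter exon length, the median r within diets was 0.58 and 21.3% were at or above the r of *bmp6* and *txndc5*. Over 4035 pairs of opposite-strand neighbours without overlap, under 10000 bases apart, it was 0.06 and 0.471% were. These pairs were chosen after the r was seen. The fragments were counted with the reverse strand setting, but whether the library kit marks strand is not given in the sources used here. How many of the *bmp6* fragments came from *txndc5* was not tested, and the same limit applies to every *bmp6* value above.

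The partner of *tgfb1a*, *LOC106613336* (ENSSSAG00000052699, chromosome 9, 156131482 to 156164485, plus strand), shares 658 exon bases. It had r = 0.29 with *tgfb1a* within diets (rho 0.34, adjusted permutation p = 0.147). Its log2 fold change was 0.06 in LP100 and -0.05 in LP500, where that of *tgfb1a* was 0.36 and 0.38.

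**Figure D5:**
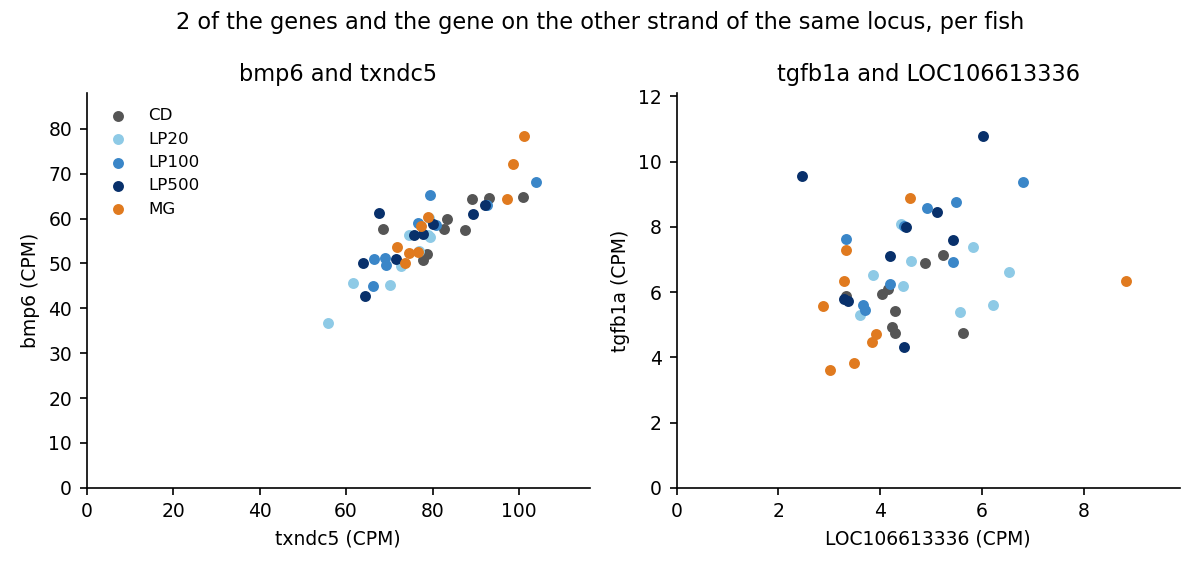
CPM of *bmp6* against *txndc5* (left) and of *tgfb1a* against *LOC106613336* (right), genes on the other strand of the same locus, in 45 fish coloured by diet (axes from 0). *bmp6* and *txndc5* lie along a line (r = 0.85 within diets, ratio 0.642 to 0.906), and *tgfb1a* and its partner scatter (r = 0.29).

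Of a list of TGF-β and BMP pathway genes, 44 were matched by symbol and 29 could be tested, the 4 genes among them. In LP500 5 of the 29 were called higher and 0 lower, beside 7.45% and 3.21% of all tested genes. In LP100 3 were called higher and 0 lower, beside 3.6% and 0.473%. These counts hold the 4 genes, which were chosen with earlier results known. Without them, 3 of 25 were called higher in LP500 and 2 of 25 in LP100, with 0 lower in both. In LP20 and MG 0 were called by edgeR. The median log2 fold change of the 29 was 0.08 in LP20, 0.19 in LP100, 0.09 in LP500 and 0.07 in MG, where the median of all tested genes was between -0.01 and 0.00. For the 25 without the 4 genes it was 0.06, 0.13, 0.08 and 0.07, in the same order. Past *bmp4* and *nbl1*, the called genes were a receptor, a secreted protease and a matrix protein.

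*acvrl1*, the type I receptor of endothelial cells known as ALK1, was higher by 0.83 (SE 0.208, edgeR adjusted p = 0.025) in LP100 and by 0.78 (SE 0.208, edgeR adjusted p = 0.0131) in LP500. *htra1*, a secreted serine protease that acts on matrix proteins and on TGF-β family ligands, was higher by 1.58 (SE 0.337, edgeR adjusted p = 0.0198) and 1.60 (SE 0.337, edgeR adjusted p = 0.00518), at a mean of 1.94 CPM. Its paralogue *htra1b*, at a mean of 81.96 CPM, did not pass, with 0.50 in LP100 and 0.51 in LP500 (SE 0.343, edgeR adjusted p = 0.463 and 0.365). The matrix protein gene *tgfbi*, which TGF-β1 induces in human cells, was higher by 1.10 (SE 0.303, edgeR adjusted p = 0.0159) in LP500. By role, 1 of 4 tested receptors and co-receptors, 2 of 5 antagonists and modulators and 1 of 4 targets were called in LP500, and 0 of 6 Smads and 0 of 5 Smad regulators, beside 10.7% of all tested genes. Groups of 4 to 6 genes are too small to set one role apart from that share. The Smads had log2 fold changes from -0.15 to 0.30 there. Of the other BMP ligands, *bmp2* was tested and stood at 0.76 in LP500 on the log2 scale (SE 0.35, edgeR adjusted p = 0.16) at a mean of 0.747 CPM. With the fibroblast minus enterocyte score in the fit, edgeR called 0 genes of the whole table in each comparison with CD. That no pathway gene passed there therefore says nothing about the pathway genes in particular.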

How the data were processed

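Fragments of 45 libraries were counted by the authors, who ran nf-core rnaseq v3.3, aligned to Ssal_v3.1 and used featureCounts v1.5.1 with strand setting 2. The deposited values are raw counts per Ensembl gene, 1 table per fish, checked to be whole numbers. The amounts of additive and the feeding time are those of the study's methods. Counts were tested with edgeR v4.0.16 (TMM, quasi-likelihood, all fish, diet as only factor), with DESeq2 v1.42.0 and limma v3.58.1 as alternatives. Log2 CPM for scores and correlations had a prior count of 2. Correlations were tested with 100000 permutations within diets in the main setting and with 20000 permutations in the alternative settings. Scores were tested with all 48620 exact permutations. All these tests were two-sided. Symbols came from 30752 genes that shared at least 0.5 of the joint span with a RefSeq gene, and near-identical copies were not resolved. No 2 libraries agreed within sampling noise (chi-square per gene at least 8.01). The members, lists and alternatives were chosen with earlier results of these data known. The text names the 4 genes, pathway genes past the threshold (at most 5 per direction and comparison) and opposite-strand partners. It also names 3 reference genes and the 5 most alike genes of each of the 4, with LOC numbers left out. *bmp2*, *htra1b*, the enterocyte genes other than *cubn*, the neuron and glia genes and the range of the Smads were added after their values were seen. Lists of 9 other cell types had under 3 tested members and were not used.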

Additional observations from a re-analysis of the deposited data

Results flagged for a closer look

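In 45 groups of 9 fish (4 genes and 5 scores by 5 diets), 8 had a fish at one end farther from its neighbour than Dixon's limit for 9 values, where chance gives about 1 in 20, or 2.25. In MG, *nbl1* in fish A045 was 8.55 CPM, with the next fish at 4.13 CPM, and without this fish the log2 fold change of *nbl1* against CD was 0.037 in place of 0.37. In LP100, fish A061 was lowest for the fibroblast score (-1.34, next 0.375), the smooth muscle score (-0.731, next 0.156), the endothelium score (-1.36, next -0.0175) and the neuron and glia score (-0.875, next 0.192). In LP500, fish A015 was lowest for the fibroblast score (-1.51, next 0.340). In LP20, fish A055 was lowest for the neuron and glia score (-1.03, next -0.0526), and in CD, fish A073 was highest for the smooth muscle score (0.269, next -0.412). The same scores are correlated, so the 8 are not independent.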

How the results depend on the processing

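The log2 fold change of *bmp4* in LP100 kept its direction and lost its call without a filter on low counts (1.32), with counts summed over runs of 3 consecutive fish numbers (1.35) and in limma-voom with the run as a random effect (1.37). In limma-voom its LP500 value lost the call too (1.42). With the 18 fish of the 2 diets alone *nbl1* passed in LP100 (0.94). With the smooth muscle minus enterocyte score in the fit the values were 0.56 and 0.48 for *bmp4* in LP100 and LP500 and 0.087 for *nbl1* in LP500, all without a call, and the sign turned for *tgfb1a* in LP20 and LP500 (-0.066 and -0.038) and for *nbl1* in MG (-0.15). With the fibroblast minus enterocyte score *bmp4* in LP100 (0.022) and *nbl1* in LP500 (0.033) lost the call, and the sign turned for *tgfb1a* in LP20, LP100 and LP500 (-0.097, -0.0025 and -0.072), *bmp4* in LP500 and MG (-0.10 and -0.091) and *nbl1* in LP100 and MG (-0.036 and -0.20).

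The number of genes called in LP20, 0 by edgeR, was 13 without the filter, 6 at a mean of at least 1 CPM and 160 by DESeq2. In LP100, 1292 became 2669 with 18 fish, 2024 by DESeq2, 704 by limma-voom and 21 with summed counts, and in LP500 3385 became 1969 with summed counts. Either score as a covariate gave 0 in both. Leaving out a fish or a run gave 0 to 452 genes in LP20, 0 to 2403 in LP100 and 0 to 4691 in LP500. It gave 1.11 to 1.66 for *bmp4* and 0.73 to 1.08 for *nbl1* in LP100, and 1.24 to 1.79 for *bmp4*, 1.03 to 1.38 for *nbl1* and 0.295 to 0.46 for *tgfb1a* in LP500. In MG it gave -0.13 to 0.048 for *tgfb1a* and -0.021 to 0.082 for *bmp6*. RLE size factors changed no call of the 4 genes. No paired analysis was possible because the fish numbers of different diets do not match. Within runs of 3 numbers the consensus correlation was -0.0059.

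The *bmp6* r with the fibroblast score was -0.34 with run means removed, a pass, and 0.072 with CPM from total counts. With smooth muscle it was 0.16 with CPM from total counts and 0.029 without the lowest fish of each diet, and with enterocyte 0.089 with run means removed and 0.24 without the 2 farthest fish. Leaving out each fish gave -0.082 to 0.043 with smooth muscle and -0.063 to 0.15 with enterocyte. The r of *nbl1* with enterocyte was -0.35 with CPM from total counts. The LP20 enterocyte score turned to -0.0082 at a prior count of 0.5 and to -0.034 with closer matched members, where that in LP500 was -0.19. As means of 3 against 3 runs the scores cannot reach an exact p below 0.1, at differences in LP20, LP100 and LP500 of 1.03, 1.41 and 1.56 (fibroblast), 0.65, 0.85 and 0.98 (smooth muscle), 1.14, 1.33 and 1.61 (endothelium) and 0.81, 0.87 and 1.04 (neuron and glia). Unless the settings show it, the cause was not tested. Counting error was highest for *nbl1* and *bmp4*. At the median fish it was 14% and 13.5%, below their spread between fish, and at the fish with the fewest fragments 25.8% and 50%.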
